A study of Mus musculus with 12 samples.

Results

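The enzymes that make and break down prostaglandins were followed in cultured mouse microglia, the resident macrophages of the brain. The set is a list of gene symbols chosen with earlier results of these data known, so its shares against all genes are no independent test. It holds 10 genes, and 9 of them had a probe set whose only symbol was theirs, among 19938 genes measured in that way. Ptgs1, which encodes cyclooxygenase-1, was not analysed here. Where a gene had several probe sets, the one with the highest mean over all arrays was used.

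Prostaglandins are made from arachidonic acid, a fatty acid held in membrane phospholipids. Cytosolic phospholipase A2 (Pla2g4a) releases it, and the cyclooxygenases (Ptgs1 and Ptgs2) turn it into the unstable prostaglandin H2, which terminal synthases convert to prostaglandin E2, prostaglandin D2, thromboxane or prostacyclin. Prostaglandin E2 acts on EP receptors, of which EP4 couples to Gs and raises cyclic AMP, and 15-hydroxyprostaglandin dehydrogenase (Hpgd) starts its inactivation.

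Primary microglia of C57BL/6J pups, taken on postnatal day 7 by magnetic selection for CD11b and grown for 3 days in serum-containing medium, were treated for 6 h. The 4 groups were vehicle (DMSO at 0.4% with ethanol at 0.001%), AE1-329 at 100 nM, oligomeric Aβ42 at 10 µM, and both agents together. Cultures with 1 agent also received the vehicle of the other, DMSO in place of Aβ42 or ethanol in place of AE1-329. AE1-329 is a selective EP4 agonist, and oligomeric Aβ42 is the aggregating peptide of Alzheimer's disease. Each group had 3 arrays, 12 in all (Affymetrix Mouse Gene 1.0 ST), and the submitters state that 3 litters served as the biological replicates of every treatment. Cells of several pups may therefore have been pooled within a replicate, and no measurement separates transcription from mRNA stability or shows protein or lipid. Values are log2 expression, and each change is given as a log2 difference of means ± its standard error from limma. A gene passed at an adjusted p under 0.05 (Benjamini-Hochberg over all 19938 genes, two-sided).

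Array medians lay between 6.97 and 7.05 log2 units, and signal over background is unknown. The median SD between replicates was 0.109 in vehicle cultures and 0.063 to 0.066 in the other groups. All 11 measured microglial markers lay above the median of all gene means, with C1qb highest (13.18) and Aif1 lowest (8.17). With Aβ42 alone 3 of these 11 passed as higher and 4 as lower, against 10.7% and 14.8% of all genes. With AE1-329 alone 1 passed as higher and 3 as lower, against 4.71% and 5.45% of all genes. Their mean level ran from 11.06 to 11.07 in vehicle, 10.92 to 10.96 with AE1-329, 10.98 to 11.03 with Aβ42 and 10.83 to 10.88 with both. Mast cell markers, which bear on Hpgds, averaged 5.36 to 5.51 on every array with 0 of 6 above that median. Markers of meningeal fibroblasts and mural cells, which bear on Ptgis, averaged between 7.33 and 7.79 in vehicle and between 7.41 and 7.83 in the other groups, with 4 of 7 above that median and Acta2 highest (11.33). Endothelial markers, which also bear on Ptgis, averaged 6.89 to 6.99 in vehicle and 7.06 to 7.20 with AE1-329 alone, without overlap, with 1 of 6 above that median. With Aβ42 alone they averaged 6.82 to 6.90 and with both agents 6.86 to 6.96. Of these 6 genes 2 passed as higher and 1 as lower with AE1-329 alone. The part of these lists in the changes below was not tested.

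The proximal promoters of 4 members are shown because the 4 genes gave 4 different responses to the agents, and they are printed from 250 bases before to 30 bases after the annotated start. Sequences are from RefSeq (GRCm38.p6), 5′ to 3′ on the gene's strand, and capitals mark every match to a motif searched on both strands.
Ptgs2 (chr1:150099781-150100060, plus strand): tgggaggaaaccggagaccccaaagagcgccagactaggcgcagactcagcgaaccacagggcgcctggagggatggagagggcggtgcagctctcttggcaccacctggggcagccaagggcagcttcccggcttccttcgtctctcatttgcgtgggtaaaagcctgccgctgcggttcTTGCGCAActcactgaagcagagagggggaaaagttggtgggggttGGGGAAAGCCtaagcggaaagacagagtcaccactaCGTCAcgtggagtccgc
Ptges (chr2:30903268-30903547, minus strand): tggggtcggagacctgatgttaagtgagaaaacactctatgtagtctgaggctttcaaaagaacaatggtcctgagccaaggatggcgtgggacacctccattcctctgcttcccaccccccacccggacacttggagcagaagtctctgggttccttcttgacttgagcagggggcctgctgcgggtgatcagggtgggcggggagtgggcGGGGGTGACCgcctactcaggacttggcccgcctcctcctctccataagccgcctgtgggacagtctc
Pla2g4a (chr1:149961261-149961540, minus strand): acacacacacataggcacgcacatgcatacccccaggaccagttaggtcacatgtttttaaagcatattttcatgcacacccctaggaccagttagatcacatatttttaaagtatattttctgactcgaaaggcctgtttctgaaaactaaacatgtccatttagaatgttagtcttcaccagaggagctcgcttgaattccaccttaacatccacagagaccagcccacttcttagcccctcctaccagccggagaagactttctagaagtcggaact
Hpgd (chr8:56294302-56294581, plus strand): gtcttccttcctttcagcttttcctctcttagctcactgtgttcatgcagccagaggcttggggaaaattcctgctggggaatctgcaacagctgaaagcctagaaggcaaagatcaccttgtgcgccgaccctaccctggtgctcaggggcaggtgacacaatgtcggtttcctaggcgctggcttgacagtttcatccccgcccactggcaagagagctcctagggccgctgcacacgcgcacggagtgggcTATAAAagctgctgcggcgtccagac

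Promoters of 9 of the 10 listed genes were in the RefSeq table, Ptgs1 among them. The motifs were TGACGTCA, the full cyclic AMP response element, and TGACG, its core, which the full element contains; the kappaB type pattern GGG, any 5 bases, CC, written for NF-kB sites; TTNNGCAA, a C/EBP type pattern; and TATAAA. The Ptgs2 window held a C/EBP type match (TTGCGCAA, first base at -69), an NF-kB type match (GGGGAAAGCC, at -23) and a TGACG core on the reverse strand (CGTCA, at 14 after the start). The Ptges window held 1 NF-kB type match (GGGGGTGACC, at -38), the Hpgd window 1 TATAAA (at 5 after the start), and the printed Pla2g4a window, at the first of 2 listed starts, none of the 5 motifs. Of 32851 promoter windows of this length, 48.9% held the NF-kB type pattern, 19.9% the TGACG core, 10.4% the C/EBP type pattern, 13.1% TATAAA and 1.74% the full element, which 0 of the 9 promoters held. Of the 9 promoters 3 held the NF-kB type pattern (Ptges, Ptges3 and Ptgs2) and 2 the TGACG core (Ptges3 and Ptgs2). The C/EBP type pattern was in 2 (Hpgds and Ptgs2) and TATAAA in 3 (Hpgd, Tbxas1 and the second start of Pla2g4a). A match is only a run of letters and was not tested as a binding site.

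With Aβ42 alone, cytosolic phospholipase A2, cyclooxygenase-2 and the E synthases Ptges and Ptges3 rose, while Hpgds, Tbxas1 and Hpgd fell. Of the 9 measured members 4 rose, against 10.7% of all genes. A further 3 fell, against 14.8% of all genes, and Ptges2 and Ptgis did not pass. All measured members lay above the median of all gene means, the lowest being Ptgis (7.55). Of the 9969 genes above that median, tested alone, 1953 passed as higher and 2775 as lower, larger shares than over all genes. The median size of change was 0.50 among members and 0.105 among all genes. In these bulk cultures fewer cells of a type and less RNA per cell cannot be told apart.

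Ptges (probe set 10481518), the inducible microsomal prostaglandin E synthase that works with cyclooxygenase-2, read 8.15, 7.71 and 7.62 in vehicle replicates 1 to 3 and 11.60, 11.64 and 11.69 with Aβ42. The groups stood far apart, and the change was 3.82 ± 0.11 (14.1-fold, adjusted p = 4.93e-11). Ptgs2 (probe set 10350516), the inducible cyclooxygenase-2, read 9.97, 9.64 and 9.02 in vehicle and 12.73, 12.66 and 12.73 with Aβ42. It rose by 3.16 ± 0.23 (8.94-fold, adjusted p = 2.53e-07). Vehicle cultures were unlike one another for this gene (SD 0.49), and the Aβ42 cultures were nearly equal (SD 0.04), so that the rise within a replicate ranged from 2.75 to 3.71.

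Pla2g4a (probe set 10358434) read 10.22, 10.05 and 10.19 in vehicle and 10.58, 10.55 and 10.71 with Aβ42, a rise of 0.46 ± 0.06 (1.38-fold, adjusted p = 8.76e-05). Its rise was small beside those of Ptgs2 and Ptges, yet the groups did not overlap. Ptges3, the cytosolic prostaglandin E synthase that also serves as the Hsp90 co-chaperone p23, rose by 0.50 ± 0.06 (adjusted p = 5.87e-05) from a vehicle range of 11.31 to 11.56 to a range of 11.88 to 11.98. The annotation gives Ptges3 to 3 probe sets, and RefSeq lists a pseudogene copy, Ptges3-ps, so the transcript measured is uncertain. The other probe sets changed by 0.40 ± 0.10 and 0.51 ± 0.06. Ptges2, the membrane-associated prostaglandin E synthase expressed in most tissues, read 7.41 to 8.07 in vehicle and 8.08 to 8.18 with Aβ42. Its difference of 0.31 ± 0.13 did not pass (adjusted p = 0.107), and it passed without vehicle replicate 3 (0.44, adjusted p = 0.0231). Without vehicle replicate 1, the lowest culture, the difference was 0.11 (adjusted p = 0.262).

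Hpgd (probe set 10571840), which oxidises prostaglandin E2 to an inactive product, read 12.70, 12.62 and 12.68 in vehicle and 11.20, 11.32 and 11.22 with Aβ42. It fell by 1.42 ± 0.06 on the log2 scale (2.68-fold lower, adjusted p = 2.74e-09), and it was lower in each of 3 replicates. Hpgds (probe set 10545101), the haematopoietic prostaglandin D synthase, read 12.18, 11.84 and 11.85 in vehicle and 11.24, 11.25 and 11.28 with Aβ42. The fall was -0.70 ± 0.08 (1.62-fold lower, adjusted p = 2.41e-05), with vehicle replicate 1 above the other vehicle cultures, and -0.59 without that array. Tbxas1 (probe set 10537410), thromboxane A synthase, read 10.91, 11.04 and 11.05 in vehicle and 10.56, 10.40 and 10.55 with Aβ42. It changed by -0.50 ± 0.06 (1.41-fold lower, adjusted p = 2.82e-05).

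Ptgis, prostacyclin synthase, lay between 7.33 and 7.67 on all 12 arrays. Its differences in the 4 comparisons of groups ran from -0.03 to 0.12, and the 95% interval for Aβ42 alone against vehicle was -0.03 to 0.27.

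**Figure D1:**
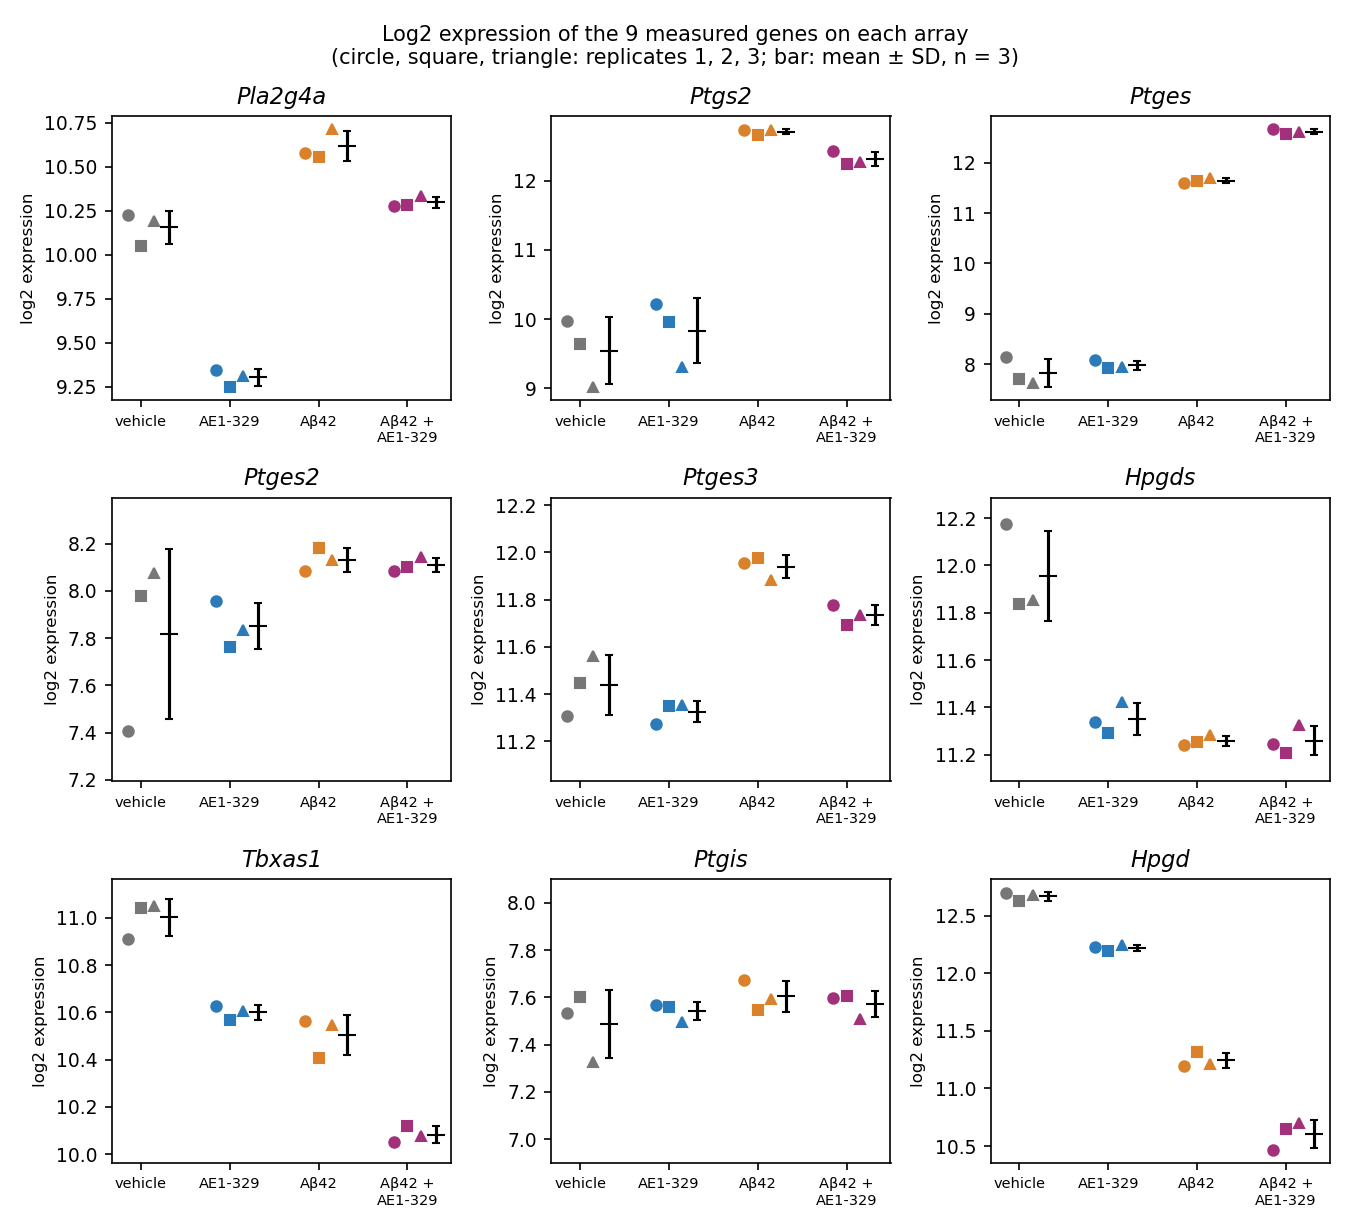
Log2 expression of the 9 measured genes (y axis) in the 4 treatment groups (x axis), with 1 symbol per array and the mean ± SD of n = 3 beside them; y axes differ between panels. Ptges and Ptgs2 lie above 11 in every Aβ42 culture and below 11 in every culture without it, Hpgd steps down from vehicle (12.67) to both agents (10.61), and Ptgis stays between 7.33 and 7.67.

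With AE1-329 alone 4 members passed as lower. Pla2g4a, Hpgds, Tbxas1 and Hpgd fell, 4 of 9 against 5.45% of all genes called lower, and 0 of 9 rose in limma's test against 4.71% of all genes, also 0 at an unadjusted p under 0.05. Of the 9969 genes above the median of gene means, tested alone, 1079 passed as higher and 1219 as lower, larger shares than over all genes. Members had a median change of -0.11 and all genes of -0.01. The comparison asks what AE1-329 does by itself to cells without Aβ42.

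Pla2g4a had the largest change of the 9 genes, from the vehicle values above to 9.35, 9.25 and 9.31 with AE1-329. It fell by 0.85 ± 0.06 (1.81-fold lower, adjusted p = 2.00e-06), by 0.80 to 0.88 within each replicate. Hpgds fell to 11.34, 11.29 and 11.42, a difference of -0.61 ± 0.08 (adjusted p = 0.000347), and -0.49 without vehicle replicate 1. Hpgd read 12.23, 12.19 and 12.24, below every vehicle culture, and changed by -0.45 ± 0.06 (1.36-fold lower, adjusted p = 0.000571). Tbxas1 read 10.63, 10.57 and 10.61 and changed by -0.40 ± 0.06 (1.32-fold lower, adjusted p = 0.000702).

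The inducible pair did not pass with AE1-329 alone. Ptgs2 read 10.22, 9.95 and 9.31, and replicate 1 was highest and replicate 3 lowest, as in vehicle. The difference of group means was 0.29 ± 0.23 (95% interval -0.21 to 0.78, adjusted p = 0.572), and the difference within a replicate was 0.25, 0.31 and 0.29. The difference of means ran from 0.02 without vehicle replicate 3 to 0.54 without replicate 3 of AE1-329 alone. It passed in a fit to these 6 arrays with the replicate as a block (adjusted p = 0.0423), an alternative chosen after seeing the data, and not with that block over all arrays (0.321). Ptges read 8.08, 7.91 and 7.94, inside the vehicle range, and differed by 0.15 ± 0.11 (adjusted p = 0.512). Without vehicle replicate 1, the highest vehicle culture, Ptges passed (0.31, adjusted p = 0.00658).

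Adding AE1-329 to Aβ42 moved Ptges, Hpgd and Tbxas1 further in the direction that Aβ42 had moved them and lowered Pla2g4a, which Aβ42 had raised. Of the 9 members 1 rose (Ptges), against 5.99% of all genes, and 3 fell (Pla2g4a, Tbxas1 and Hpgd), against 5.04% of all genes. Of the 9969 genes above the median of gene means, tested alone, 1331 passed as higher and 1023 as lower. This comparison shares its Aβ42-alone arrays with the first.

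Ptges read 12.67, 12.57 and 12.62 with both agents, above every Aβ42-alone culture, a rise of 0.97 ± 0.11 (1.96-fold, adjusted p = 6.76e-05), with 0.93 to 1.07 within each replicate. Hpgd read 10.47, 10.65 and 10.70, and fell by 0.64 ± 0.06 (1.56-fold lower, adjusted p = 3.06e-05). Its 4 groups were in the order vehicle, AE1-329, Aβ42, both, with no overlap between neighbours. Tbxas1 read 10.05, 10.12 and 10.08, a change of -0.42 ± 0.06 (1.34-fold lower, adjusted p = 0.000430), and its order was the same. For Tbxas1 the lowest AE1-329 culture and the highest Aβ42-alone culture differed only in the third decimal (10.566 and 10.562).

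Pla2g4a read 10.28, 10.28 and 10.33 with both agents, below Aβ42 alone and above vehicle, a change of -0.32 ± 0.06 against Aβ42 alone (1.25-fold lower, adjusted p = 0.00468). Hpgds read 11.24, 11.21 and 11.33, level with Aβ42 alone, and the 95% interval of that difference was -0.18 to 0.18. Ptgs2 read 12.43, 12.24 and 12.26, below all 3 Aβ42-alone cultures, but -0.39 ± 0.23 did not pass (adjusted p = 0.381). When only the 6 arrays of this comparison were fitted, which leaves out the scattered cultures without Aβ42, Ptgs2 passed as lower (adjusted p = 0.00370). Ptges3 also lay below Aβ42 alone without overlap (11.69 to 11.78), at -0.20 ± 0.06 (adjusted p = 0.0653), and passed under 8 of 21 alternatives. Ptges2 differed by -0.02 ± 0.13.

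The effect of Aβ42 in the presence of AE1-329 was read against AE1-329 alone. Here 4 members rose (Pla2g4a, Ptgs2, Ptges and Ptges3), with 9.77% of all genes called higher, and 2 fell (Tbxas1 and Hpgd), with 12.2% of all genes called lower. Of the 9969 genes above the median of gene means, tested alone, 1866 passed as higher and 2283 as lower. Ptges rose by 4.64 ± 0.11 (25.0-fold, adjusted p = 1.05e-11), by 4.59 to 4.68 within each replicate, and Ptgs2 by 2.48 ± 0.23 (5.59-fold, adjusted p = 2.80e-06). Pla2g4a rose by 1.00 ± 0.06 (1.99-fold), and Ptges3 by 0.41 ± 0.06. Hpgd fell by 1.61 ± 0.06 (3.06-fold lower, adjusted p = 8.18e-10), and Tbxas1 changed by -0.52 ± 0.06. Hpgds was at -0.09 ± 0.08 and did not pass (adjusted p = 0.525). Ptges2 was at 0.26 ± 0.13 (adjusted p = 0.214) and passed under 4 of 21 alternatives.

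**Figure D2:**
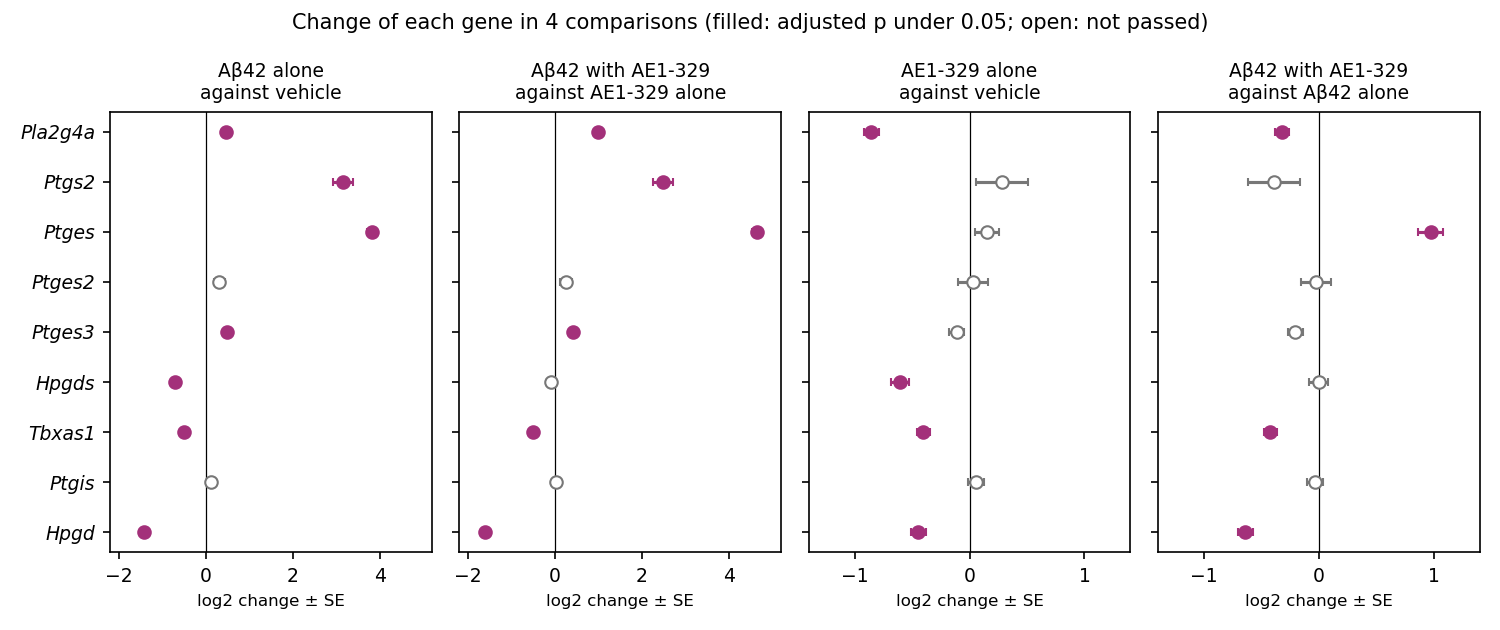
Log2 change ± standard error (x axis; the scale differs between the 2 left and the 2 right panels) of each gene (y axis) in 4 comparisons, with n = 3 arrays per group; filled points passed at an adjusted p under 0.05. Ptges changed by 3.82 and 4.64 with Aβ42 and by 0.15 and 0.97 with AE1-329, while Hpgd lies left of 0 in all 4 panels.

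Whether AE1-329 acted differently with and without Aβ42 was tested as the interaction, the change by AE1-329 in Aβ42 cultures minus that in cultures without it. It passed upward for Ptges, Pla2g4a and Hpgds, 3 of 9 members against 1.03% of all genes. It passed downward for 0 of 9 in limma's test, against 0.918% of all genes, and 0 had an unadjusted p under 0.05. Of the 9969 genes above the median of gene means, tested alone, 288 passed upward and 212 downward. For Ptges the change by AE1-329 was 0.15 without and 0.97 with Aβ42, a difference of 0.82 ± 0.15 (adjusted p = 0.0132). That difference was positive in each of 3 replicates (0.61 to 1.14). Without Aβ42 the Ptges arrays read 7.62 to 8.15, not far above the median of gene means (7.41). Signal over background is unknown there, and whether it limited the change without Aβ42 was not tested. For Pla2g4a the change was -0.85 without and -0.32 with Aβ42, a difference of 0.53 ± 0.09 (adjusted p = 0.00621) with 0.50 to 0.57 by replicate.

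For Hpgds the change by AE1-329 was -0.61 without and -0.00053 with Aβ42, a difference of 0.60 ± 0.12 (adjusted p = 0.0156). All treated cultures lay between 11.21 and 11.42, below all vehicle cultures. The combined treatment overlapped each agent alone, whereas the lowest AE1-329 culture (11.29) lay just above the highest Aβ42-alone culture (11.28). The Hpgds interaction did not pass without replicate 2 of AE1-329 alone (adjusted p = 0.0532), without replicate 3 of the combined treatment (0.0506) or over all probe sets (0.0506), and ranged from 0.00422 to 0.0532 over 19 alternatives.

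The other members did not pass for the interaction. Tbxas1 fell by like amounts in both settings, and the interval of its difference was -0.20 to 0.16. Hpgd had a difference of -0.19 ± 0.09 (adjusted p = 0.501) and Ptgs2 of -0.68 ± 0.32 (adjusted p = 0.501). For Ptgs2 the difference was negative in each of 3 replicates (-0.55, -0.73 and -0.76), with a fitted 95% interval of -1.37 to 0.02, and the fitted value ran from -0.94 to -0.42 over 19 alternatives.

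**Figure D3:**
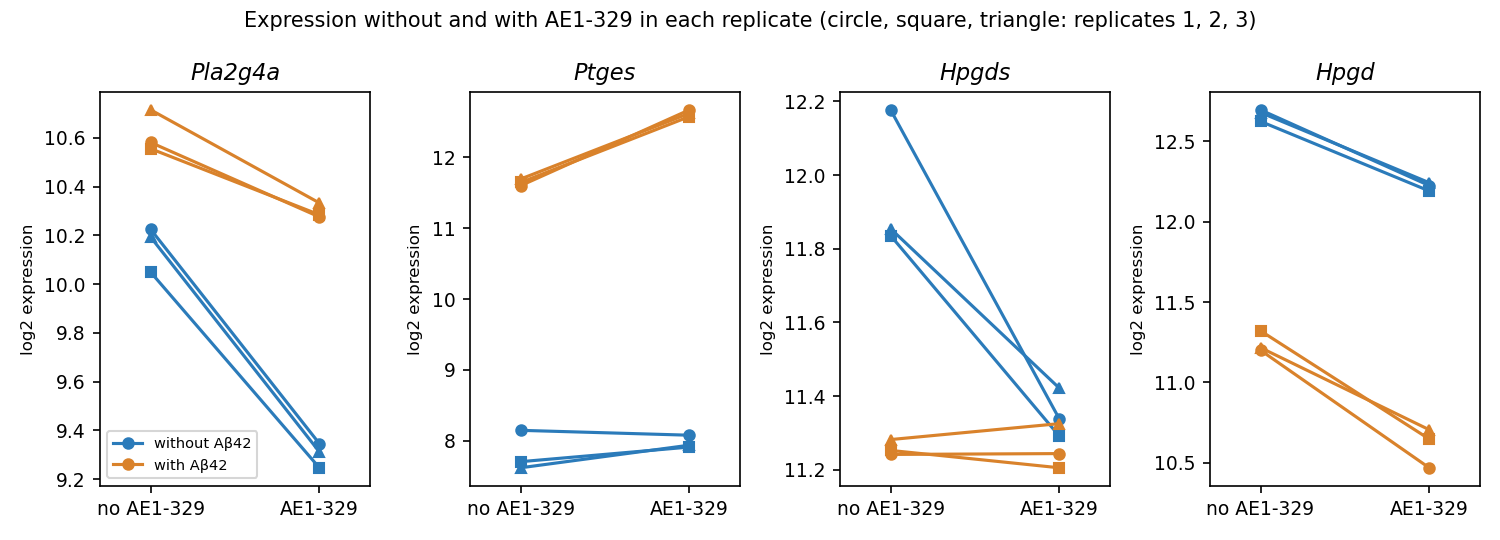
Log2 expression (y axis) without and with AE1-329 (x axis) for 4 genes, where each line joins the arrays of 1 replicate number, blue without and orange with Aβ42. The orange Ptges lines rise by 0.93 to 1.07 while the blue ones stay between 7.62 and 8.15, the blue Pla2g4a lines fall more steeply than the orange, and the orange Hpgds lines change by -0.05 to 0.04.

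The genes most like 4 members over the 12 arrays were picked by Pearson correlation of log2 values. They were Sema4a (r = 0.993), Limd2 (0.992) and Adm (0.989) for Ptgs2, and Foxp4 (0.996), Grk3 (0.995) and Pilrb2 (0.994) for Ptges. For Hpgd they were Ncoa4 (0.995), Arhgap25 (0.994) and Rasa1 (0.993), and for Pla2g4a Nufip1 (0.992), Stx4a (0.987) and Dock10 (0.986). The 12 arrays come from 4 treatments and 3 litters and are not independent points. Among the members themselves, Ptgs2 and Ptges correlated at 0.954 over the 12 arrays, and Hpgd at -0.973 with Ptges.

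Around the 9 enzymes, 60 other genes of eicosanoid metabolism and reception were measured of 68 symbols listed, which include 2 pairs of old and current names. With Aβ42 alone 10 of these 60 rose and 12 fell, where 10.7% and 14.8% of all genes did, and 38 did not pass. Their median change was 0.01, and that of all genes 0.02. The smaller lists that follow are to be read against the same shares. Of 7 genes that activate or re-esterify fatty acids 3 rose and 0 fell (0 also at an unadjusted p under 0.05). They were Lpcat2, which makes platelet-activating factor (0.99 ± 0.05), and the acyl-CoA synthetases Acsl5 (0.96 ± 0.07) and Acsl4, which prefers arachidonic acid (0.44 ± 0.06).

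Of 20 phospholipases and related genes of arachidonate release 4 rose and 4 fell with Aβ42 alone. Annexin A1 (Anxa1, 0.97 ± 0.11) and the platelet-activating factor hydrolase Pla2g7 (0.40 ± 0.05) were among the rises, and the diacylglycerol lipase Daglb (-0.58 ± 0.08) among the falls. Of 10 further synthases, reductases and transporters 1 rose, the prostaglandin reductase Zadh2 (0.53 ± 0.07), and 3 fell. Of 9 prostanoid receptors 2 rose and 2 fell, including the prostacyclin receptor Ptgir (1.11 ± 0.11) and the EP2 receptor Ptger2 (-0.56 ± 0.09). Among 14 leukotriene and lipoxygenase genes 3 fell and 0 rose, 0 also at an unadjusted p under 0.05, with the cysteinyl leukotriene receptor Cysltr1 at -0.94 ± 0.09.

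With AE1-329 alone 4 of the 60 rose and 5 fell, where 4.71% and 5.45% of all genes did, and 51 did not pass. Their median change was -0.03, against -0.01 for all genes. Ptger4, the gene of the EP4 receptor that the agonist binds, fell by 1.06 ± 0.07. The monoacylglycerol lipase Mgll (-0.68 ± 0.09), which yields arachidonic acid from an endocannabinoid, Daglb (-0.30 ± 0.08), Zadh2 (-0.24 ± 0.07) and the phospholipase A2 activating protein Plaa (-0.22 ± 0.05) also fell. Lpcat2 (0.58 ± 0.05), Pla2g7 (0.31 ± 0.05), the lysophospholipid acyltransferase Mboat7 (0.27 ± 0.08) and Acsl4 (0.22 ± 0.06) rose.

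When AE1-329 was added to Aβ42, 9 of the 60 rose and 6 fell, where 5.99% and 5.04% of all genes did, and 45 did not pass. Their median change was 0.01, against -0.02 for all genes. Acsl4 (0.67 ± 0.06), Pla2g7 (0.61 ± 0.05), Ptger2 (0.57 ± 0.09) and Lpcat2 (0.41 ± 0.05) rose. Anxa1 (-0.69 ± 0.11), Ptger4 (-0.54 ± 0.07), Mgll (-0.38 ± 0.09) and Plaa (-0.24 ± 0.05) fell. Against AE1-329 alone 14 rose and 8 fell, where 9.77% and 12.2% of all genes did, and 38 did not pass. They included the same direction for Acsl4 (0.89 ± 0.06), Acsl5 (0.91 ± 0.07), Lpcat2 (0.81 ± 0.05), Pla2g7 (0.70 ± 0.05), Zadh2 (0.74 ± 0.07), Ptgir (1.08 ± 0.11) and Cysltr1 (-0.93 ± 0.09) as Aβ42 alone against vehicle.

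The interaction passed for 3 of the 60, upward for Ptger2 (0.68 ± 0.12), Ptger4 (0.52 ± 0.10) and Acsl4 (0.45 ± 0.08), and downward for 0 in limma's test, with 2 lower at an unadjusted p under 0.05. Of all genes 1.03% passed upward and 0.918% downward.

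**Figure D4:**
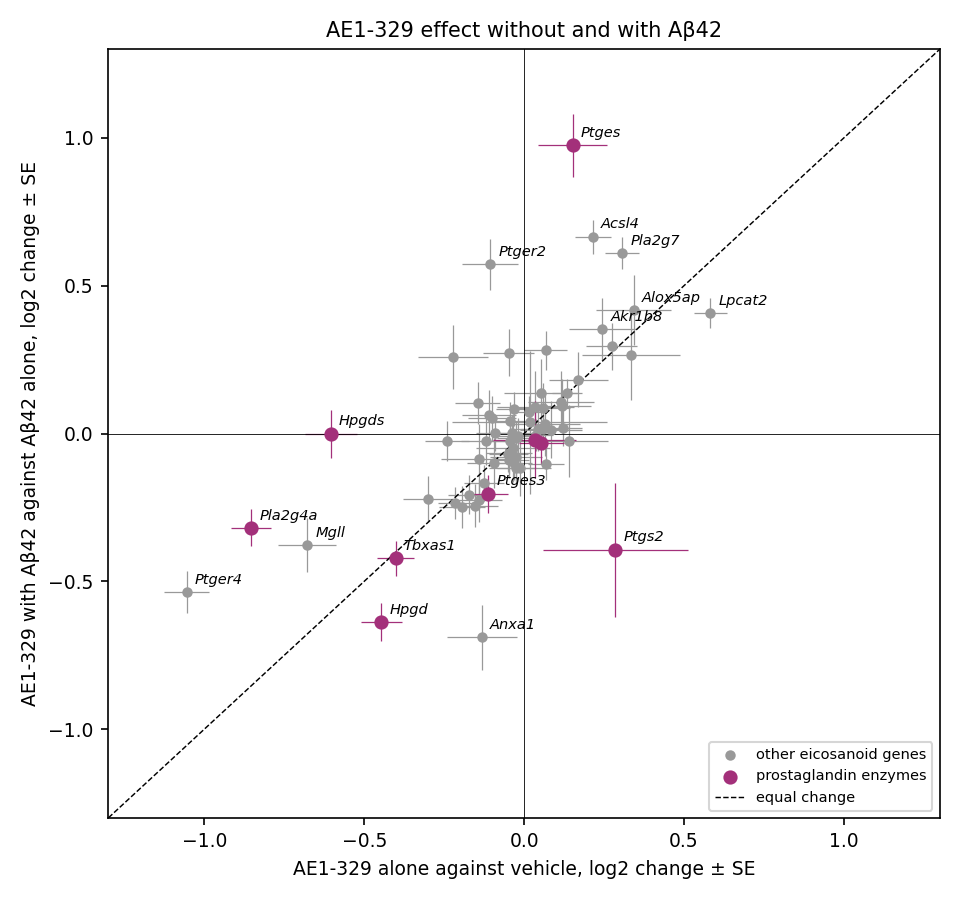
Change by AE1-329 without Aβ42 (x axis) against the change with Aβ42 (y axis), both log2 ± standard error with n = 3 arrays per group and no array in common, for the 9 enzymes and 60 other eicosanoid genes; the dashed line marks equal change. Ptges (0.15 and 0.97), Hpgds and Pla2g4a (-0.85 and -0.32) lie above the line, and Tbxas1 (-0.40 and -0.42) lies on it within its error.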

How the data were processed

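The authors deposited log2 expression, with 1 value for each probe set on each array, and RMA and Partek 6.5 are named in the submitters' processing notes. Their options and filters are not stated there. RMA commonly includes quantile normalization, under which changes are relative to the bulk of genes. Values ran from 2.79 to 13.95, as a log2 scale would. Of 35556 probe sets 21789 carried 1 symbol, and 21698 of these matched a RefSeq gene ID (GRCm38.p6, used for names). Group means of all 12 arrays were fitted without a filter by lmFit and eBayes of limma 3.58.1 (R 4.3.3). On simulated data with 19938 genes, for Aβ42 alone against vehicle, 92.0% of 100 changes of 0.5 and 100% of 100 changes of 1 were recovered. The simulated noise was independent and normal, with 1 spread per gene in all groups and no litter effect. The deposited arrays differ in these points, so the rates need not hold for them.

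Replicate numbers were read as litters from the design text. Deviations from group means correlated at 0.0044 to 0.54 over 18 same-numbered pairs (17 above 0.1). For each of the 12 arrays, the most correlated array among the other groups bore its own number. Members and gene lists were chosen with earlier results of these data known. Named genes were all members, up to 10 passing pathway genes with the smallest p per comparison, and the 3 most alike genes of Ptgs2, Ptges, Hpgd and Pla2g4a, leaving out predicted genes, Rik clones, olfactory receptors and microRNA genes. Alternatives were only genes above the median, means of probe sets, all probe sets, renewed quantile normalization, a trended robust prior, only the compared arrays, a replicate block, array weights, each array left out, and 1 added after seeing the data.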

Additional observations from a re-analysis of the deposited data

Results flagged for a closer look

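The response to AE1-329 differed between cultures with and without Aβ42, by limma's interaction test, for 3 members. The difference was 0.82 for Ptges, 0.53 for Pla2g4a and 0.60 for Hpgds, in log2 units. Ptges and Pla2g4a passed under all 19 alternatives run for the interaction, and Hpgds under 16 of them.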

How the results depend on the processing

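Of 45 results (9 members in 5 comparisons), 37 kept their direction where called and their side of the threshold in every alternative, and no called result changed sign. The counts of members that passed stayed at 7 to 8 for Aβ42 alone (7 as reported), 4 to 5 for AE1-329 alone (4), 4 to 5 for AE1-329 added to Aβ42 (4), 6 to 7 for Aβ42 with AE1-329 against AE1-329 alone (6) and 2 to 3 for the interaction (3) when each array was left out. Under the other alternatives they were 7, 4 to 5, 4 to 6, 6 to 7 and 2 to 3. The replicate block changed no call of a member (Hpgds interaction adjusted p = 0.00891, Ptgs2 with AE1-329 added to Aβ42 0.154). Of 927 values under alternatives, 18 passed where the reported one did not and 3 no longer passed (the Hpgds interaction). Beside those given with the results, the gained calls included Ptges3 with AE1-329 alone for the mean of its probe sets (adjusted p = 0.0440), and Ptges2 with both agents against AE1-329 alone without vehicle replicate 1 (0.00490). Over all genes the interaction passed for 389 as reported, for 677 with the replicate block, for 230 over all probe sets and for 246 to 254 without replicates 2 or 3 of Aβ42 alone or replicate 2 of AE1-329 alone. Without vehicle replicate 1 it passed for 557. AE1-329 alone passed for 2026 genes, for 970 when only its 6 arrays were fitted and for 1188 with the block as well. AE1-329 added to Aβ42 passed for 2199 genes, for 3093 without vehicle replicate 1 and for 3555 with array weights. The cause was not tested. Without scanner files the signal over background is unknown for weak probe sets such as Ptgis, and for Ptges without Aβ42. The 3 arrays per group limit the precision.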
